A study of Mus musculus with 16 samples.

Results

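The oligodendrocyte lineage was followed here through 10 genes listed for its precursors and newly formed cells, though not all are confined to these stages. They are Pdgfra, Cspg4, Gpr17, Enpp6, Bmp4, Neu4, Bcas1, Olig1, Olig2 and Sox10. They were taken by name, through the Ensembl identifiers of the count table, and no measured value entered their choice. They are 10 of the 35328 genes counted, and all 10 passed the filter on low counts. Mbp, the gene of myelin basic protein, was set beside them as the measure of white matter. RNA of the dorsal hippocampus was sequenced in 16 male mice of the C57Bl6/J strain in 4 groups of 4. Mice of the home cage water group and of the home cage caffeine group were not trained. Learning water and learning caffeine mice were killed 1 hour after the last of 3 days of Morris water maze training, in which a mouse learns the place of a hidden platform. They had also spent 2 days of habituation in the pool, so learning and swimming cannot be told apart here. Replicate numbers run from 2 to 20 in home cage mice and from 22 to 40 in learning mice, and the labels do not explain them. Caffeine was given at 0.3 g/L in the drinking water for 2 weeks, beginning at 8 to 9 weeks of age, and the water groups drank plain water over the same time. The mice carried no transgene or deletion that the labels name. Each library is 1 mouse and whole dissected tissue, so fewer cells of a type and less RNA per cell cannot be told apart, and p-values measure the spread between mice.

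Oligodendrocyte precursors persist in the adult brain, where they divide and give rise to new myelinating cells. They carry PDGF receptor alpha and the proteoglycan NG2, and as they leave the cell cycle they pass through a short-lived newly formed stage before they wrap axons and make myelin proteins such as Mbp in bulk. The transcription factors Olig1, Olig2 and Sox10 are active along much of this path, mature cells included, whereas Pdgfra and Cspg4 are switched off once a precursor differentiates. Formation of new oligodendrocytes in adult mice has been linked to the learning of motor and spatial tasks.

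Counts on genes ran from 23078094 to 49949281 per library. Values are given as CPM, counts relative to the library total after scaling by edgeR's TMM method. No 2 mice of a group agreed within counting error (chi-square per degree of freedom 5.26 to 30.4 over 24 pairs). Pairs with learning water replicate 24 gave 20.1 to 30.4, and pairs with home cage caffeine replicate 17 gave 20.7 to 29.4. The other pairs of these 2 groups gave 5.26 to 13.2. Replicate 17 also had the highest share of mitochondrial counts of the 16 libraries (4.49%). Oligodendrocyte RNA was present in every mouse: the 20 mature myelin genes of the list used here, Mbp included, summed to between 5722 and 13627 CPM, and none of the 20 was at 0. The highest of these sums belonged to learning water replicate 24, which also had the highest Mbp of the 16 mice. The values that moved most without that mouse are given beside the results it touches.

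Mbp was measured at 3544, 2514, 2353 and 2708 CPM in home cage water mice, at 3563, 4086, 2397 and 3436 CPM in home cage caffeine mice, at 5364, 2773, 2441 and 2305 CPM in learning water mice, and at 3141, 2368, 2399 and 2441 CPM in learning caffeine mice. All 4 groups overlapped, and the spread inside a group was wide, with an SD of 0.36 on the log2 scale against a median of 0.15 over the 17830 tested genes. None of the comparisons called Mbp. Learning against home cage gave a log2 fold change of 0.21 (SE 0.22) under water and -0.38 (SE 0.22) under caffeine, with adjusted p of 0.737 and 0.364 in edgeR's quasi-likelihood test. Without learning water replicate 24 the log2 fold change of Mbp with learning under water was -0.15 (SE 0.16), and that with caffeine after learning was 0.05 (SE 0.16).

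Per kilobase of exon, the level of the 10 genes over the 16 mice ran in this order: Bcas1 at 51.9 ± 13.6 CPM per kb (SD, n = 16), Olig1 at 42.7 ± 8.68, Sox10 at 15.6 ± 3.92, Olig2 at 10.3 ± 2.39, Gpr17 at 9.66 ± 0.594, Pdgfra at 5.24 ± 0.366, Neu4 at 2.60 ± 0.282, Cspg4 at 2.07 ± 0.138, Enpp6 at 1.48 ± 0.522 and Bmp4 at 0.805 ± 0.175. Mbp stood far above them at 353.0 ± 99.3 CPM per kb. The intervals of 1 SD overlapped between Bcas1 and Olig1, between Sox10 and Olig2, between Olig2 and Gpr17, between Cspg4 and Enpp6, and between Enpp6 and Bmp4. Those intervals describe the spread between mice. Both genes of a pair were measured in the same libraries, and their order within each mouse was not tested. Bmp4 rested on 38 to 95 counts per library, and counting alone gives its level a coefficient of variation of 12.8%, against 21.7% measured over the 16 mice.

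**Figure D1:**
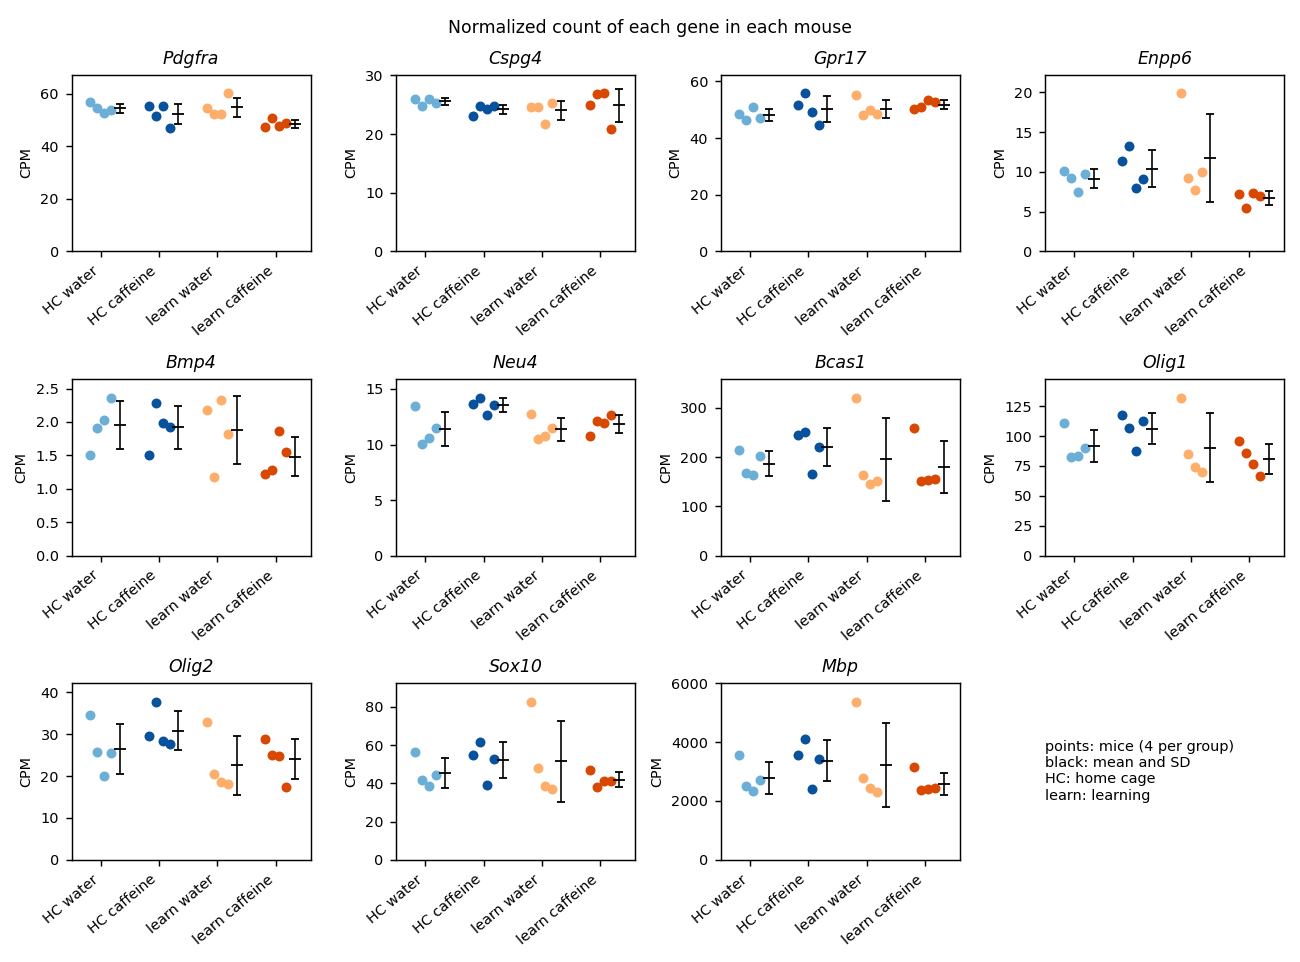
Normalized count (CPM, vertical axes from 0) of each of the 10 genes and Mbp in each mouse, by group; points are mice and the black marks are the mean and SD of 4 mice. Pdgfra, Cspg4 and Gpr17 stayed within narrow bands (47.0 to 60.1, 20.95 to 26.9 and 44.5 to 55.8 CPM), whereas 1 learning water mouse stood highest of all 16 for Bcas1, Olig1, Sox10, Enpp6 and Mbp.

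The precursor surface genes came first. Pdgfra, the receptor for the PDGF-A that keeps precursors dividing (chr5:75152292-75198215, plus strand, GRCm38), was measured at 56.7, 54.4, 52.5 and 53.9 CPM in home cage water mice, at 55.3, 51.7, 55.3 and 47.0 CPM in home cage caffeine mice, at 54.6, 52.5, 52.4 and 60.1 CPM in learning water mice, and at 47.2, 50.6, 47.5 and 48.8 CPM in learning caffeine mice. The 4 learning caffeine mice lay below the 4 learning water mice without overlap. They were within the range of the home cage mice only through home cage caffeine replicate 17 (47.0 CPM), the other home cage mice lying at 51.7 CPM or higher. Cspg4, which encodes the NG2 proteoglycan (chr9:56865033-56899870, plus strand), ran from 20.95 to 26.9 CPM over all 16 mice, with group means between 24.1 ± 1.64 (learning water) and 25.6 ± 0.582 CPM (home cage water; SD, n = 4). Both were among the steadier genes: the SD inside a group was 0.08 for Pdgfra and 0.10 for Cspg4 on the log2 scale, at percentiles 15.3 and 29.3 of all tested genes. Pdgfra is also made by fibroblasts and Cspg4 by pericytes, so the level of these genes in whole tissue is not that of precursors alone.

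Gpr17, an orphan receptor of committed precursors that must be lowered for myelination to go on (chromosome 18, minus strand), was as steady, with group means of 48.3 ± 2.07, 50.3 ± 4.70, 50.4 ± 3.23 and 51.8 ± 1.48 CPM in water and caffeine mice of the home cage and then in water and caffeine mice after learning (SD, n = 4). Its exons share 188 bases with Lims2 on the opposite strand, and whether the counting used strand was not given in the sources used here. Pdgfra, Bmp4, Bcas1 and Olig1 also overlap other genes, of which none that was counted had more than 3.63 counts per library on average. Bmp4, a secreted ligand that holds back oligodendrocyte differentiation (chr14:46383520-46390669, minus strand), ran from 1.18 to 2.36 CPM, with group means of 1.95 ± 0.353, 1.92 ± 0.322, 1.88 ± 0.512 and 1.48 ± 0.293 CPM in the same order of groups. Neu4, a sialidase (chr1:94020451-94028334, plus strand), was measured at 13.5, 10.0, 10.5 and 11.5 CPM in home cage water mice, at 13.7, 14.2, 12.7 and 13.5 CPM in home cage caffeine mice, at 12.7, 10.5, 10.7 and 11.5 CPM in learning water mice, and at 10.8, 12.1, 12.0 and 12.7 CPM in learning caffeine mice. Of the 4 home cage caffeine mice 3 lay above every home cage water mouse, and the lowest of them was level with the highest learning caffeine mouse.

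Enpp6, a choline-specific phosphodiesterase used as a marker of newly formed oligodendrocytes (chr8:46986887-47096762, plus strand), was measured at 10.1, 9.21, 7.44 and 9.78 CPM in home cage water mice, at 11.3, 13.2, 8.0 and 9.07 CPM in home cage caffeine mice, at 19.8, 9.21, 7.75 and 9.97 CPM in learning water mice, and at 7.22, 5.40, 7.30 and 6.93 CPM in learning caffeine mice. The learning caffeine mice were the 4 lowest of the 16, and learning water replicate 24 stood alone at the top. Bcas1, a protein of early myelinating cells (chr2:170346991-170427845, minus strand), was measured at 215, 167, 164 and 201 CPM in home cage water mice, at 244, 250, 166 and 221 CPM in home cage caffeine mice, at 321, 163, 145 and 152 CPM in learning water mice, and at 259, 152, 153 and 156 CPM in learning caffeine mice. In each learning group 1 mouse lay far above the other 3, which were close together.

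Among the lineage transcription factors, Olig1 (chr16:91269772-91271933, plus strand) was measured at 111, 82.5, 83.1 and 90.1 CPM in home cage water mice, at 118, 107, 87.8 and 112 CPM in home cage caffeine mice, at 132, 85.0, 74.0 and 69.5 CPM in learning water mice, and at 95.9, 85.8, 76.3 and 66.3 CPM in learning caffeine mice. Its neighbour Olig2 (chr16:91225457-91228677, plus strand), which is needed for the lineage to form, was measured at 34.7, 25.6, 20.1 and 25.5 CPM, at 29.6, 37.7, 28.3 and 27.7 CPM, at 32.9, 20.5, 18.6 and 18.1 CPM, and at 28.9, 25.1, 24.8 and 17.4 CPM in the same order of groups. Sox10, which drives the myelin genes together with Myrf (chr15:79154908-79165240, minus strand), was measured at 56.4, 42.0, 38.6 and 44.1 CPM, at 54.8, 61.7, 39.2 and 52.9 CPM, at 82.7, 47.9, 38.4 and 37.2 CPM, and at 47.1, 37.9, 41.4 and 41.1 CPM. In these 3 genes, too, the groups overlapped in every comparison. Inside a group the SD was 0.27 for Olig1, 0.32 for Olig2, 0.33 for Sox10, and 0.37 for both Enpp6 and Bcas1 on the log2 scale, close to the 0.36 of Mbp.

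Upstream sequence is shown for Enpp6 and Pdgfra, the former with a level that followed Mbp from mouse to mouse and the latter with one that did not. Each run is the 250 bases before the gene's start in the RefSeq promoter table (GRCm38.p6), which held 6 of the 10 genes and not Gpr17, Bcas1, Olig1 or Sox10. Capitals mark every match, on either strand, to CANNTG, the E-box read by Olig factors and other basic helix-loop-helix proteins, or to ACAAT, the core letters read by Sox factors. The 2 motifs do not overlap in these runs.
Enpp6, chr8:46986637-46986886, plus strand: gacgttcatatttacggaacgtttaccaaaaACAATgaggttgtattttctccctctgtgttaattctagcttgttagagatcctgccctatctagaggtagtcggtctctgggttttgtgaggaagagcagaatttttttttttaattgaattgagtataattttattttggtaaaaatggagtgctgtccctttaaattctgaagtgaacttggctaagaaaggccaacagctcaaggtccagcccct
Pdgfra, chr5:75152001-75152250, plus strand: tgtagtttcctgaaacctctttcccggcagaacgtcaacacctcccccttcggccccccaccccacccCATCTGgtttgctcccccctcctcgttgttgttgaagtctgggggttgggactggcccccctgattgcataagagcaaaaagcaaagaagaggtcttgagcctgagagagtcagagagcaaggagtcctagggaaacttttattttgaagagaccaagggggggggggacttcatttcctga
Enpp6 held 1 match to ACAAT and none to CANNTG, and Pdgfra held 1 match to CANNTG and none to ACAAT. Of 32851 promoters in the table, 66.2% held CANNTG and 27.7% held ACAAT in a window of this length, so both matches are common and describe the letters only.

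The 10 genes differed in whether they moved with Mbp. Over the 16 mice, on log2 CPM with a prior count of 2, Sox10 and Mbp had a Pearson r of 0.988 and a Spearman rho of 0.965 (both permutation p = 1e-05, the smallest that 100000 resamples can give; adjusted p = 0.00198 and 0.00743 over 17829 genes). Bcas1 had r = 0.933 (permutation p = 1e-05, adjusted p = 0.00198) and rho = 0.8294 (permutation p = 0.00015, adjusted p = 0.0288). Olig1 had r = 0.896 (permutation p = 1e-05, adjusted p = 0.00198) and rho = 0.785 (permutation p = 0.00056, adjusted p = 0.0507). These 3 genes thus rose and fell with the myelin gene from mouse to mouse. Enpp6 had r = 0.826 (permutation p = 0.00024, adjusted p = 0.0168), but its rho of 0.626 (permutation p = 0.0114) had an adjusted p of 0.1501. Olig2 had r = 0.750 (permutation p = 0.00067, adjusted p = 0.0349) and rho = 0.768 (permutation p = 0.00086, adjusted p = 0.0613). Of all 17829 genes compared with Mbp, 4.11% were called at an adjusted p under 0.1 by Pearson r (3.20% with positive and 0.909% with negative r) and 3.80% by Spearman rho, against 5 and 4 of the 10 genes here.

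The other 5 genes were not called. Neu4 had r = 0.559 (permutation p = 0.0231, adjusted p = 0.211) and rho = 0.524 (permutation p = 0.0402, adjusted p = 0.245), and Gpr17 had r = 0.340 (permutation p = 0.196, adjusted p = 0.499) and rho = 0.171 (permutation p = 0.524). Bmp4 had r = 0.109 (permutation p = 0.691, adjusted p = 0.869) and rho = 0.021 (permutation p = 0.943), Pdgfra had r = 0.038 (permutation p = 0.888, adjusted p = 0.958) and rho = -0.015 (permutation p = 0.960), and Cspg4 had r = -0.013 (permutation p = 0.962, adjusted p = 0.987) and rho = -0.306 (permutation p = 0.251). For rho the adjusted p of these 5 genes was 0.245 or higher. The median r was 0.655 over the 10 genes and 0.012 over all tested genes. All values of a mouse share its library and its dissection, and their part in these correlations was not tested.

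**Figure D2:**
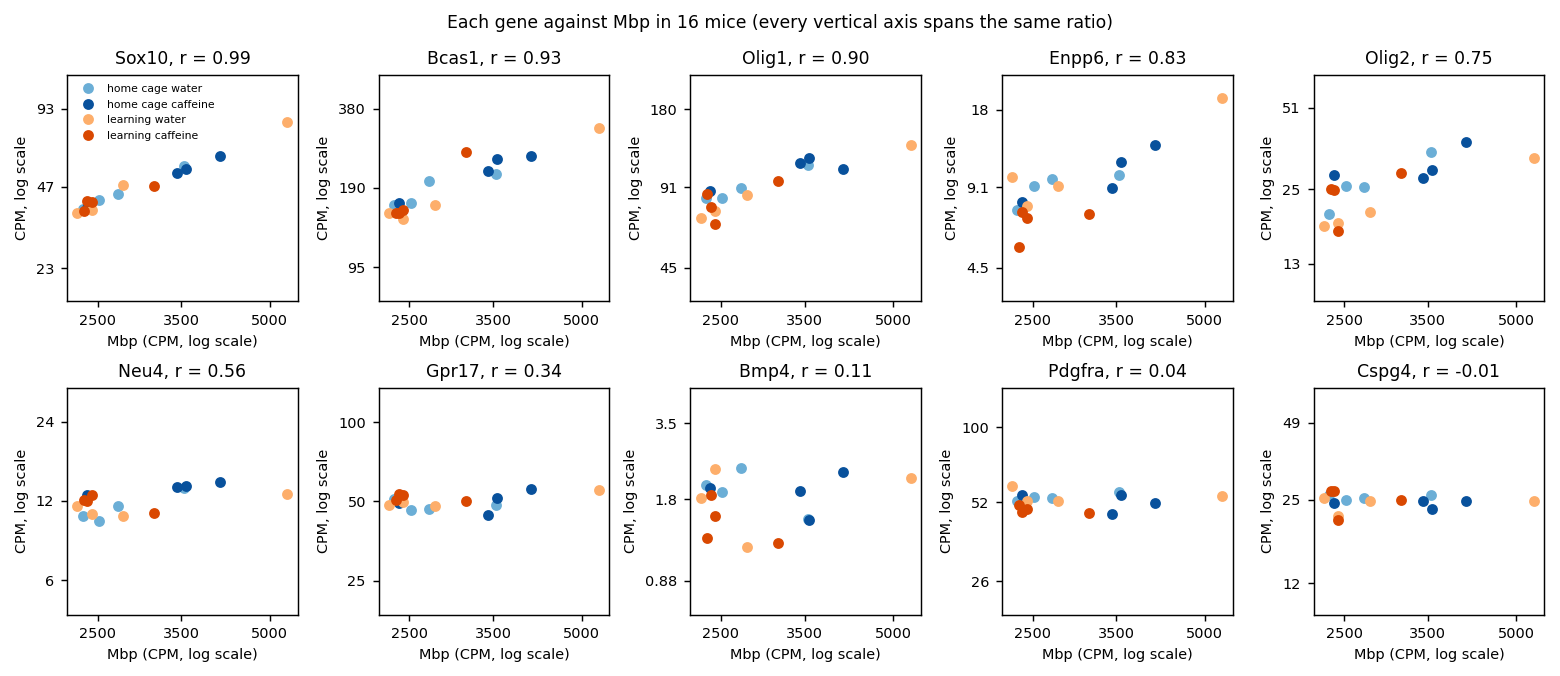
CPM of each gene (vertical axis, log scale, every panel spanning the same ratio) against CPM of Mbp (horizontal axis, log scale) in 16 mice, coloured by group. Sox10, Bcas1, Olig1, Enpp6 and Olig2 climb with Mbp (r = 0.99, 0.93, 0.90, 0.83 and 0.75), while Pdgfra and Cspg4 lie flat (r = 0.04 and -0.01).

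The 2 mice farthest from the median of Mbp were learning water replicate 24 (5364 CPM) and home cage caffeine replicate 9 (4086 CPM). Without them r was 0.971 for Sox10, 0.889 for Bcas1, 0.889 for Olig1 and 0.693 for Olig2. It was 0.538 for Enpp6, with a rho of 0.442, so that its relation rested in large part on these mice. Its r was 0.858 within the 8 home cage mice and 0.831 within the 8 learning mice, but each of these sets holds 1 of the 2 mice. Gpr17 changed sign to -0.296 and Bmp4 to -0.323. Over the 8 mice of the home cage and over the 8 learning mice r was 0.997 and 0.985 for Sox10, 0.959 and 0.932 for Bcas1, 0.910 and 0.930 for Olig1, 0.819 and 0.746 for Olig2, and 0.836 and 0.266 for Neu4. After the group means were taken out, r was 0.988 for Sox10, 0.943 for Bcas1, 0.914 for Olig1, 0.873 for Enpp6 and 0.827 for Olig2, and -0.152 for Pdgfra, so the relation was present inside the groups.

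The slope of each gene on Mbp was taken with both as log2 CPM, and slopes were not compared by a test. It was 1.0 for Enpp6 (0.79 to 1.09 with 1 mouse left out in turn), 0.92 for Bcas1 (0.90 to 0.98) and 0.88 for Sox10 (0.84 to 0.89). For Olig1 it was 0.72 (0.68 to 0.81), for Olig2 0.72 (0.65 to 0.95) and for Neu4 0.25 (0.21 to 0.36). The range of Olig2 thus covered the slopes of Bcas1 and Sox10. The slope lay between -0.004 and 0.10 for Cspg4, Pdgfra, Gpr17 and Bmp4. The 5 called genes were also related to each other: over the 16 mice Bcas1 and Sox10 had r = 0.896, Bcas1 and Olig1 0.892, Olig1 and Sox10 0.871, Olig1 and Olig2 0.848, Enpp6 and Sox10 0.846, and Enpp6 and Olig2 0.517, the lowest of their 10 pairs. Pdgfra and Cspg4, both precursor genes, had r = 0.035, and Gpr17 and Pdgfra had r = -0.094. These pair values describe the same 16 libraries and were not tested.

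**Figure D3:**
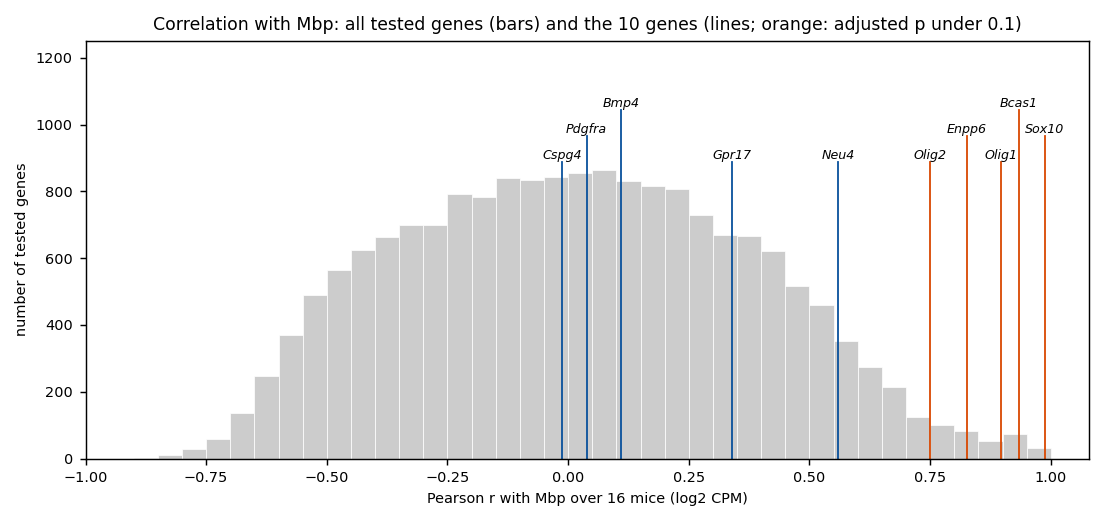
Distribution of Pearson r with Mbp over 16 mice for all 17829 tested genes (bars, number of genes) with the 10 genes as lines, orange where the adjusted p was under 0.1. Sox10 stands at percentile 99.99 (r = 0.988), and Cspg4, Pdgfra and Bmp4 stand near the middle of all genes (r = -0.013, 0.038 and 0.109).

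Other genes of the lineage were divided in a like manner. All 19 mature myelin genes other than Mbp were called with positive r, from 0.799 for Ugt8a to 0.979 for Mag, with a median of 0.929. Of the 10 genes, Enpp6 (0.826), Olig1 (0.896) and Bcas1 (0.933) lay within that range, Sox10 (0.988) above it and Olig2 (0.750) below it. From which stage of the lineage their RNA came was not tested. Of 13 other genes listed for newly formed cells 5 were called, all with positive r, and the median was 0.607. The called genes were Nkx6-2 (0.950), Sirt2 (0.911), Chn2 (0.802), and Cnksr3 and Lims2 (both 0.714). Nkx6-2, Sirt2 and Chn2 lay within the range of the mature myelin genes. Whether the RNA of these listed genes came from newly formed cells was not tested. Of 15 other precursor genes 2 were called with positive r (Nkx2-2 at 0.782 and Sox8 at 0.768) and 1 with negative r (Dscam at -0.708, a gene that neurons also make), and the median was -0.044. Vcan, Lhfpl3 and Matn4, which like Pdgfra mark precursors, had r of -0.044, 0.064 and 0.091. Others of that list that were not called lay farther from 0 on both sides, Cacng4 at 0.640, C1ql1 at 0.636, Ptprz1 at -0.470 and Tnr at -0.536. None of 10 astrocyte, 8 pericyte or 10 fibroblast genes was called, with medians of -0.154, 0.065 and 0.016. No pericyte or fibroblast gene was at 0 in the libraries, and the summed level of these lists ran from 174 to 216 CPM and from 72.3 to 189 CPM over the 16 mice.

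**Figure D4:**
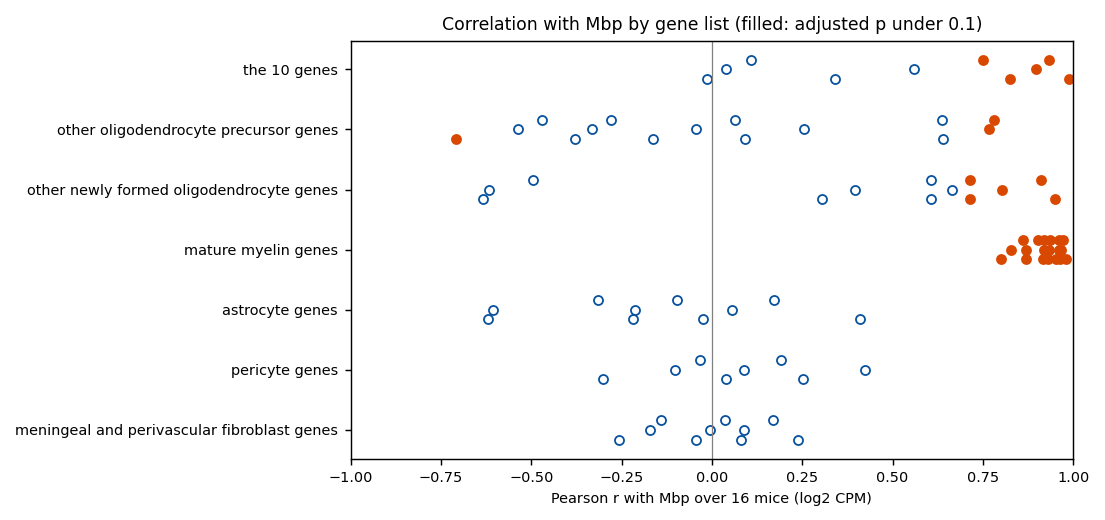
Pearson r with Mbp over 16 mice (horizontal axis) for each gene of 7 lists, filled where the adjusted p over all genes was under 0.1. The 19 mature myelin genes sit between 0.799 and 0.979, while the 15 other precursor genes spread from -0.708 to 0.782.

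Whether caffeine changed the 10 genes at rest was asked in the home cage mice. No gene of the 17830 tested was called (0%), the 10 included, while 636 genes (3.57%) and 1 of the 10 had an unadjusted p under 0.05. That gene was Neu4, at 13.5 ± 0.634 CPM with caffeine against 11.4 ± 1.53 CPM with water (SD, n = 4), a log2 fold change of 0.25 (SE 0.09; edgeR's quasi-likelihood test, unadjusted p = 0.0153, adjusted p = 0.997). Cspg4 was the gene without overlap between the groups, at 23.03 to 24.7 CPM with caffeine against 24.8 to 26.0 CPM with water, a log2 fold change of -0.08 (SE 0.07). Of all tested genes, 1.99% were without overlap in either direction. The 5 genes correlated with Mbp by Pearson r had log2 fold changes of 0.18 (Enpp6) to 0.24 (Bcas1), beside 0.28 (SE 0.22) for Mbp itself. With log2 CPM of Mbp as a covariate Enpp6 stood at -0.08, Bcas1 at -0.03 and Sox10 at -0.04. Over the 10 genes the median was 0.19, against -0.003 over all tested genes, and the 95% confidence intervals together spanned -0.49 to 0.71.

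After learning, caffeine against water again called no gene (0%), and 700 genes (3.93%) and 2 of the 10 had an unadjusted p under 0.05. Enpp6 was at 6.71 ± 0.892 CPM with caffeine against 11.7 ± 5.51 CPM with water (SD, n = 4), a log2 fold change of -0.81 (SE 0.23, 95% confidence interval -1.30 to -0.32; edgeR's quasi-likelihood test, unadjusted p = 0.00272, adjusted p = 0.999). Without learning water replicate 24 the log2 fold change of Enpp6 was -0.42. Pdgfra was at 48.5 ± 1.54 CPM against 54.9 ± 3.61 CPM (SD, n = 4), a log2 fold change of -0.18 (SE 0.06; unadjusted p = 0.00775, adjusted p = 0.999 by the same edgeR test). Both genes lay lower with caffeine without overlap, and 2.60% of all tested genes were without overlap in either direction. The remaining 8 genes had log2 fold changes from -0.34 (Bmp4) to 0.09 (Olig2), beside -0.32 (SE 0.22) for Mbp, and the median of the 10 was -0.14 against -0.004 over all tested genes. Of these 8, Bcas1 went from -0.12 to 0.23 without learning water replicate 24, Olig1 from -0.16 to 0.09, Sox10 from -0.30 to 0.03, and Olig2 from 0.09 to 0.34.

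Learning against home cage under water called 173 genes (0.970%) and none of the 10. An unadjusted p under 0.05 was found for 2096 genes (11.8%) and again for none of the 10. The log2 fold changes ran from -0.22 (Olig2, SE 0.19) to 0.36 (Enpp6, SE 0.23), and the median was 0.01 against -0.01 over all tested genes. Both the highest values turned sign without learning water replicate 24: Enpp6 went from 0.36 to -0.02 and Sox10 from 0.19 to -0.13. In the same fit Bcas1 went from 0.06 to -0.28, Olig1 from -0.02 to -0.26, and Olig2 from -0.22 to -0.47 (SE 0.17; unadjusted p = 0.0128, adjusted p = 0.260 in edgeR), the 1 gene of the 10 that then had an unadjusted p under 0.05. With log2 CPM of Mbp as a covariate Sox10 stood at -0.001, Bcas1 at -0.15, Enpp6 at 0.14 and Olig2 at -0.36 (adjusted p = 0.162 in edgeR). None of the 10 was without overlap between the groups, against 6.99% of all tested genes.

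Under caffeine, learning against home cage called 942 genes (5.28%), 3.16% higher and 2.13% lower, and again none of the 10. An unadjusted p under 0.05 was found for 3355 genes (18.8%) and for 2 of the 10. The lowest adjusted p belonged to Enpp6, at 6.71 ± 0.892 CPM after learning against 10.4 ± 2.32 CPM in the home cage (SD, n = 4), with a log2 fold change of -0.63 (SE 0.23, 95% confidence interval -1.12 to -0.13; edgeR's quasi-likelihood test, adjusted p = 0.160). Olig1 was at 81.1 ± 12.7 against 106 ± 13.1 CPM (SD, n = 4), a log2 fold change of -0.39 (SE 0.17; adjusted p = 0.218 by the same edgeR test). Enpp6 and Neu4 lay lower after learning without overlap, against 10.9% of all tested genes in either direction, Neu4 with a log2 fold change of -0.19 (SE 0.09). The log2 fold changes of 8 of the 10 genes were negative, with a median of -0.30 against -0.01 over all tested genes, beside -0.38 for Mbp and -0.38 for the median of the mature myelin genes. That none of the 10 was called depended on the choice of test. Enpp6 was called where the Wald test of DESeq2, the study's tool in a later version, replaced edgeR (log2 fold change -0.62, adjusted p = 0.0830). In edgeR it was called where the filter asked for 1 count in total (adjusted p = 0.0962), and where the 8 libraries of the comparison were fitted alone (adjusted p = 0.0789). These fits called 3.67%, 0.806% and 1.54% of all genes lower. Without learning water replicate 24, which is in neither group but enters the shared spread, edgeR called both Enpp6 (adjusted p = 0.0317) and Olig1 (adjusted p = 0.0785), with 2.97% of all genes called lower. With log2 CPM of Mbp as a covariate neither was called, Enpp6 at -0.28 (adjusted p = 0.318 in edgeR) and Olig1 at -0.14 (adjusted p = 0.428 in edgeR).

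**Figure D5:**
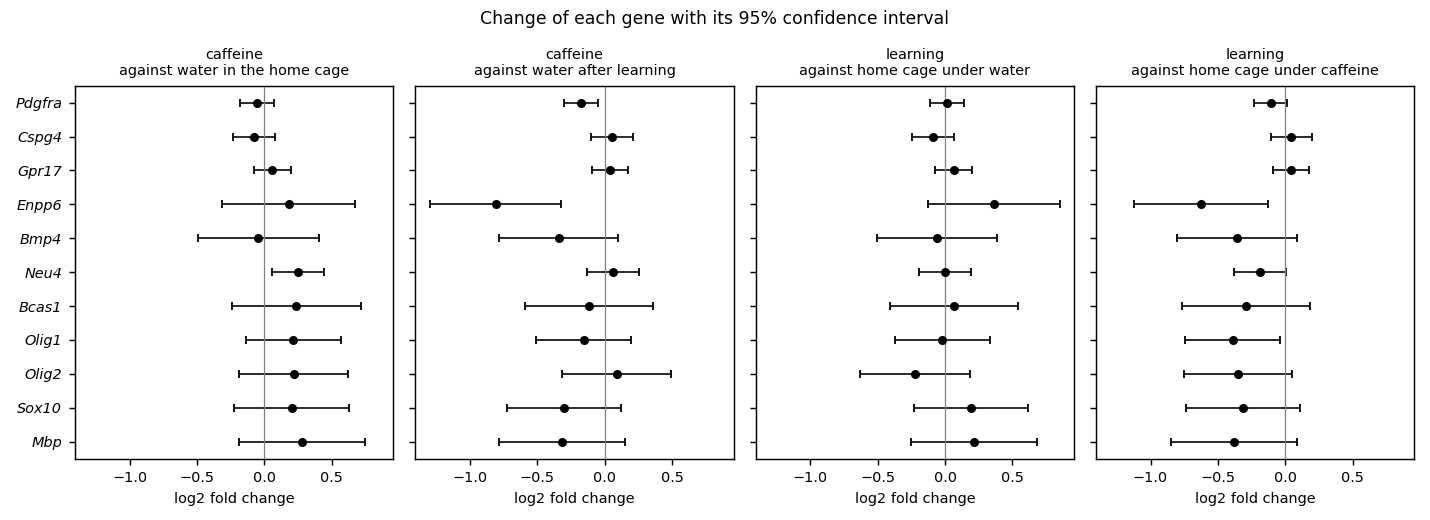
Log2 fold change (horizontal axes) of the 10 genes and Mbp in the 4 comparisons of 2 groups, with the 95% confidence interval as bars, from edgeR with 4 mice per group. After learning, Enpp6 stands at -0.81 for caffeine against water and Pdgfra at -0.18, and no gene had an adjusted p under 0.1.

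The difference between the learning responses under caffeine and under water called no gene (0%), while 648 genes (3.63%) had an unadjusted p under 0.05. Among the 10 this was Enpp6, with a difference in log2 fold change of -0.99 (SE 0.33, 95% confidence interval -1.68 to -0.29; edgeR's quasi-likelihood test, unadjusted p = 0.00786, adjusted p = 0.99997). It was -0.60 without learning water replicate 24 and -0.43 with Mbp as a covariate. Sox10 had a difference of -0.51 (SE 0.28), which was -0.18 without that mouse and 0.03 with Mbp as a covariate, and Mbp itself had -0.59 (SE 0.31), which was -0.23 without that mouse. The 4 comparisons of 2 groups and this difference share the same mice and are not separate evidence.

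Averaged over both treatments, learning called 2590 genes (14.5%), 7.81% higher and 6.71% lower, and none of the 10, while 25.5% of all genes and 1 of the 10 had an unadjusted p under 0.05. Olig2 came nearest, with a log2 fold change of -0.29 (SE 0.14; edgeR's quasi-likelihood test, adjusted p = 0.193), followed by Olig1 with -0.20 (SE 0.12; adjusted p = 0.289 in edgeR), and the other 8 genes lay between -0.21 (Bmp4) and 0.05 (Gpr17), beside -0.08 (SE 0.16) for Mbp. The calls depended on how Mbp and 1 mouse were treated. With log2 CPM of Mbp as a covariate, Olig1 (-0.15, adjusted p = 0.0890) and Olig2 (-0.23, adjusted p = 0.0870) were called lower, with 6.77% of all genes called lower in that fit. Without learning water replicate 24, Olig1 (-0.32, adjusted p = 0.0287), Olig2 (-0.41, adjusted p = 0.0339) and Enpp6 (-0.32, adjusted p = 0.0685) were called lower, with 7.98% of all genes called lower. When each gene was instead taken as its ratio to Mbp and fitted with limma, learning called 81 genes (0.454%) and none of the 10, whose changes relative to Mbp ran from -0.20 (Olig2, SE 0.20) to 0.17 (Gpr17, SE 0.20) on the log2 scale. Subtracting Mbp puts its spread into most genes, and limma draws the SE of each gene toward a shared value. Sox10 thus had an SE of 0.195 here and 0.035 with Mbp as a covariate. This fit could therefore hardly call a gene that follows Mbp, and its lack of calls is not evidence of no change.

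Caffeine averaged over both conditions called no gene (0%), with 725 genes (4.07%) and 2 of the 10 at an unadjusted p under 0.05. These were Pdgfra, with a log2 fold change of -0.12 (SE 0.04; edgeR's quasi-likelihood test, unadjusted p = 0.0129, adjusted p = 0.985), and Neu4, with 0.16 (SE 0.06; unadjusted p = 0.0279, adjusted p = 0.985). Enpp6 had -0.31 (SE 0.16), which was -0.12 without learning water replicate 24. Relative to Mbp, caffeine called 20 genes (0.112%) and none of the 10, which ran from -0.29 (Enpp6, SE 0.20) to 0.16 (Olig2, SE 0.20). The limit of the ratio fit given for learning holds here too, with an SE of 0.195 for Sox10.

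The ligands, receptors and targets around Pdgfra and Bmp4 were read from a list of 20 PDGF and BMP pathway genes, all of them tested. Averaged over both treatments, learning called 2 higher and 3 lower, against 7.81% and 6.71% of all genes. Smad1, which carries the BMP signal to the nucleus, rose by 0.29 (SE 0.04, adjusted p = 0.00104 in edgeR) on the log2 scale, and its relative Smad5 rose by 0.16 (SE 0.05, adjusted p = 0.0721). Id2 and Id3, which BMP signals induce in many cells and which hold back differentiation, fell by 0.26 (SE 0.06, adjusted p = 0.00896) and by 0.19 (SE 0.07, adjusted p = 0.0958), and Pdgfrb, the PDGF receptor of pericytes, fell by 0.22 (SE 0.05, adjusted p = 0.0212). Smad1 was also called higher under water (0.30, adjusted p = 0.0429) and under caffeine (0.27, adjusted p = 0.0295), and Id2 lower under caffeine (-0.29, adjusted p = 0.0589). The list's median change was -0.01, as over all tested genes, and the ligands Pdgfa, Pdgfb, Pdgfc, Bmp2, Bmp6 and Bmp7 and the antagonists Nog and Chrd were not called in these comparisons.

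Of the other lineage genes, learning averaged over both treatments called 2 of 13 genes of newly formed cells lower, where 6.71% of all genes were called lower. Kif19a fell by 0.39 (SE 0.10, adjusted p = 0.0324 in edgeR) and Lims2, which shares bases with Gpr17, fell by 0.29 (SE 0.10, adjusted p = 0.0712). Both were called lower under caffeine as well (-0.52 and -0.47, adjusted p = 0.0684 and 0.0768), with Nkx2-2 (-0.73, adjusted p = 0.0880) and Cacng4 (-0.25, adjusted p = 0.0755) of the precursor list. Of 20 mature myelin genes, Opalin, a late myelin membrane protein, was called in 1 comparison, lower after learning under caffeine (-0.77, adjusted p = 0.0871). Learning under caffeine called 2.13% of all genes lower. The list medians for learning over both treatments were 0.03, -0.03 and -0.10 in precursor, newly formed and myelin genes, against -0.01 over all tested genes.

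Genes of other cell types that the dissection could hold were read too, beside 7.81% of all genes called higher and 6.71% called lower with learning over both treatments. Averaged over both treatments, learning called 9 of 10 choroid plexus genes lower (median log2 fold change -1.21), with summed levels of 312 to 2380, 194 to 510, 166 to 440 and 117 to 206 CPM in water and caffeine mice of the home cage and in water and caffeine mice after learning. It called 7 of 10 microglia genes lower (median -0.18), with summed levels of 501 to 568, 542 to 583, 492 to 526 and 465 to 538 CPM in the same groups. Of 10 astrocyte genes Gjb6 was called higher (0.27), and Gfap (-0.25) and Slc7a10 (-0.23) lower, and 1 gene was called lower in each of the pericyte (Ndufa4l2, -0.47), fibroblast (Igf2, -0.64), thalamus (Plekhg1, -0.24) and hippocampal neuron (Wfs1, -0.32) lists. Under water 5 choroid plexus genes were called lower, and under caffeine 6 microglia genes, Gfap (-0.43), Plekhg1 (-0.36) and Zic1 (-1.09) lower and Gjb6 higher (0.45). Of all genes, 0.970% were called under water in either direction, and 2.13% lower and 3.16% higher under caffeine. With caffeine, too, all 10 choroid plexus genes had lower values and none passed the test, with a median log2 fold change of -1.67 in the home cage, -0.78 after learning and -1.11 over both. No list had a gene at 0 in all libraries. The part of these cells in the values of the 10 genes was not tested.

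Genes most like Pdgfra, Gpr17 and Enpp6 were sought among 13378 genes of sufficient level (mean log2 CPM of 1 or more), by Pearson r over the 16 mice after the group means were taken out. Enpp6 was closest to March8 (0.960), Scd1, which makes monounsaturated fatty acids (0.957), Grb14 (0.955), Rffl (0.955) and Pogk (0.951). Its 5 closest genes all had r above the 0.873 that Enpp6 had with Mbp by the same measure. These values include learning water replicate 24, the highest mouse for Enpp6 at 19.8 CPM, and were not computed without it. Pdgfra was closest to Gdi2 (0.893), Tmem184c (0.887), Ruvbl1 (0.868), Smu1 (0.857) and Dnm3 (0.851), and Gpr17 to Arl10 (0.888), Papss1 (0.875), Zdhhc9 (0.858), Heatr5a (0.849) and Bace1 (0.845). No gene of the lineage lists stood among these 15, which were the highest of many values over few mice.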

How the data were processed

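The authors made poly(A) RNA libraries, sequenced single-end reads of 50 bases, aligned them to mm10 (STAR and Bowtie 2, Ensembl release 90), kept uniquely aligned reads, counted them with HTSeq 0.6.1p1 in union mode and deposited raw counts per gene, without normalization or pooling and without molecular identifiers. Alignment and bcl2fastq 2.17.1.14 are from the submitters' processing notes and the study's methods. From the counts, edgeR 4.0.16 (R 4.3.3) was run with TMM, filterByExpr over the 4 groups (17830 of 35328 genes), 1 mean per group over 16 libraries and the quasi-likelihood test. P-values were adjusted over all tested genes (Benjamini-Hochberg) and calls were made under 0.1, the study's threshold. The study itself tested with DESeq2, which is among the alternatives here. Library totals of 23078094 to 49949281 gave log2 fold changes with a standard error of 0.10 in the median gene.

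Correlation with Mbp used log2 CPM (prior count 2) and 100000 permutations, two-sided. Ratios to Mbp used limma 3.58.1. Exon lengths, symbols and positions came from GENCODE M21 (GRCm38), which named 35247 of the 35328 genes, and levels per kilobase divide CPM by the summed exon length. Lists of other precursor, newly formed, PDGF and BMP, mature myelin, pericyte, fibroblast, choroid plexus, astrocyte, microglia, thalamus and hippocampal neuron genes were written by hand. Tmem2 and 9630013A20Rik of these lists were not matched by symbol. A result of the precursor list is not reported here. The genes named are the 10 genes, Mbp, the list genes called in any comparison and the 5 most alike to Pdgfra, Gpr17 and Enpp6, and list genes named for their r with Mbp were chosen after their values were seen. The genes, lists and rules were chosen with earlier results of these data known. The fits were tested on simulated data. Alternatives were DESeq2 1.42.0 (size factors or Wald test), other filters and prior counts, an adjusted p under 0.05, robust empirical Bayes, fits on 8 libraries, Mbp as a covariate, the mean of the mature myelin list in place of Mbp, and each library left out in turn.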

Additional observations from a re-analysis of the deposited data

Results flagged for a closer look

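In 5 of 44 groups of 4 mice, 1 mouse stood apart from the rest, its gap to the nearest mouse divided by the whole range of the group, being above Dixon's 95% critical value. Bcas1 stood apart in learning water replicate 24 (321 CPM, a gap of 0.8955 of the range) and in learning caffeine replicate 22 (259 CPM, 0.9614). Olig2 did so in learning water replicate 24 (32.9 CPM, 0.8382). Mbp did so in the same 2 mice, at 5364 CPM (0.8471) and 3141 CPM (0.9054). Of the 5 flags 3 belong to replicate 24, and the values of 1 mouse are not independent. Groups drawn from 1 normal distribution would pass this value by chance at a rate of about 5%.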

How the results depend on the processing

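The number of the 10 genes called was 0 in all 7 comparisons and under every alternative but these. For learning under caffeine it was 1 with the Wald test of DESeq2, the study's tool, and 1 when genes with as little as 1 count were kept. It was also 1 with edgeR on the 8 libraries of the comparison, and 0 to 2 when each library was left out. The first 3 of these fits called 3.67%, 0.806% and 1.54% of all genes lower. For learning averaged over both treatments it was 2 with Mbp as a covariate (6.77% of all genes called lower) and 0 to 3 when each library was left out. In both comparisons the highest count came without learning water replicate 24, where 2.97% and 7.98% of all genes were called lower. The 5 genes correlated with Mbp stayed 5 with each library left out, with another prior count, with deviations from the group means and with the mature myelin mean in place of Mbp.

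The following log2 fold changes named in the results, none of them called, changed sign, given as the range with each library left out. For caffeine after learning these were Bcas1 (-0.34 to 0.23), Olig1 (-0.26 to 0.0915), Sox10 (-0.43 to 0.0266) and Olig2 (-5.76e-04 to 0.34). For learning under water they were Enpp6 (-0.0245 to 0.52), Sox10 (-0.13 to 0.32), Bcas1 (-0.28 to 0.19) and Olig1 (-0.26 to 0.0914), and for the difference between the learning responses Olig2 (-0.27 to 0.12). The end of each range with the sign opposite to the main value came without learning water replicate 24, except for Olig2 with caffeine and Olig1 with learning under water. With Mbp as a covariate, the sign changed for caffeine in the home cage in Enpp6 (-0.0752), Bcas1 (-0.0312) and Sox10 (-0.0425), for caffeine after learning in Bcas1 (0.16) and Olig1 (0.0507), for learning under water in Bcas1 (-0.15) and Sox10 (-0.00122), and for the difference in Bcas1 (0.19), Olig1 (0.0177), Olig2 (0.26) and Sox10 (0.0288). The cause was not tested. Counts of 38 to 95 limit Bmp4, and 4 mice per group limit the genes whose spread inside a group was wide. No paired analysis was possible because the groups share no replicate numbers.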
